A study of Mus musculus with 12 samples.

Results

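Transcripts of 10 regulators, 9 of them splicing factors of hair cells, neurons, muscle or epithelia and 1 a transcriptional repressor that is itself a splicing target, were measured in inner hair cells (IHCs) and outer hair cells (OHCs) of the cochlea. They are Srrm4, Srrm3, Rest, Ptbp1, Ptbp2, Nova2, Esrp1, Esrp2, Rbm24 and Rbm38. These genes were listed by name for their roles, with earlier results of these data known. They were matched by their GENCODE mouse gene name to the Ensembl identifiers of the count files, which found all 10 of 10 among 55416 genes. All 10 had enough counts to enter the comparison of IHCs and OHCs across 13269 genes.

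The libraries were bulk RNA-seq of sensory cells sorted by fluorescence from the organ of Corti of mice at postnatal day 0 (P0), with 6 libraries of IHCs and 6 of OHCs, labelled wild type. IHCs were sorted as cells labelled by GFP from Atoh1-GFP, without tdTomato. OHCs were labelled by GFP and also by tdTomato, expressed from the R26 locus after recombination by a Cre under the control of Insm1, a gene that marks OHCs early. By the study's methods the reporter alleles were combined in a single cross, so the cell types differ in their label and IHCs may carry the same alleles, among them the Insm1 allele with GFP and Cre knocked into that gene. By the study's methods, the libraries were made from separate pools of IHCs and OHCs, and pools from several pups were not separated by sex.

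Most genes are transcribed into a precursor whose introns are removed and whose exons may be kept or skipped, and RNA-binding proteins decide many of these choices. SRRM4 and its relative SRRM3 favour microexons, very short exons used in neurons and hair cells, and SRRM4 also acts on the transcript of Rest, a repressor of neuronal genes. PTBP1 binds pyrimidine-rich RNA and holds neuronal exons back, including an exon of its own relative Ptbp2. Mice with a mutation in Srrm4 lose IHCs and are deaf.

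Of these 10 regulators, Ptbp1 alone passed the edgeR test between IHCs and OHCs, at 2.06-fold higher levels in IHCs. That call was lost, at an adjusted p of 0.0532, when libraries were scaled by total counts that include ribosomal RNA. The levels of its relative Ptbp2 lay the other way and passed the threshold only with DESeq2. Srrm4, Rbm24 and Ptbp1 were abundant in both cell types, while Srrm3, Esrp1, Esrp2, Rbm38 and Ptbp2 were low and varied widely among libraries. Over the whole table, 6.26% of the 13269 genes passed the quasi-likelihood (QL) test of edgeR at a Benjamini-Hochberg adjusted p under 0.05, 3.81% higher in IHCs and 2.44% higher in OHCs. Among the members 1 of 10 was called, a share that is not read as a result about these genes as a set. Their median log2 fold change of OHCs against IHCs was -0.24, beside -0.04 over all genes tested.

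The depth on annotated genes was 31490204 to 44017309 counts in the libraries of IHCs and 29564827 to 39121988 in those of OHCs, of which ribosomal RNA took 21.5% to 56.9% and 23.4% to 36.4%. IHC replicate 1 stood apart with the highest ribosomal share, and its TMM factor, which scales the library, was 0.486 against 0.902 to 1.23 in the other 11 libraries. All 4 IHC markers (Slc17a8, Tbx2, Fgf8 and Otof) were higher in IHCs and 3 of the 4 OHC markers (Insm1, Bcl11b and Neurod6, but not Ikzf2) were higher in OHCs by the same test. Summed markers of supporting cells were 322 to 689 counts per 1000000 counts on genes (CPM) in IHCs and 96.4 to 248 CPM in OHCs, with 2 of 9 passing the test (Gjb2 and Sox2, both higher in IHCs) and none at 0 in all libraries. Summed markers of endothelium were 0.302 to 5.08 CPM in IHCs and 15.4 to 199 CPM in OHCs, with 6 of 7 passing the test, all higher in OHCs, and Cldn5 at 0 in all IHC libraries. Markers of spiral ganglion neurons, some of which hair cells express too, summed to 826 to 1512 CPM in IHCs and 218 to 438 CPM in OHCs, and 3 of 8 were higher in IHCs. In sorted pools, fewer cells of a type and less RNA per cell cannot be told apart.

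Ptbp1, the polypyrimidine tract binding protein of most tissues other than neurons, lies on chromosome 10 of GRCm39 (79690261 to 79700605, plus strand, ENSMUSG00000006498.17). Ptbp2, its neuronal relative, lies on chromosome 3 (119509386 to 119578115, minus strand, ENSMUSG00000028134.12). Each transcript holds an exon of 34 bp that is known to be skipped under the control of PTBP1, and both are shown because they are the place where the pair's expression is tied together. Each sequence is from GRCm39 and runs 5′ to 3′ on the transcribed strand, with 100 bases of the intron before the exon and 20 of the intron after it, and capitals mark the exon. The Ptbp2 sequence is chr3:119518241-119518394 on the minus strand and the Ptbp1 sequence is chr10:79697748-79697901 on the plus strand.
Ptbp2: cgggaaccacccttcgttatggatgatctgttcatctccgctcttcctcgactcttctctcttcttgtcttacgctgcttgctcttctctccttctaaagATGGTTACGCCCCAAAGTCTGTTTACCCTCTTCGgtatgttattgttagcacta
Ptbp1: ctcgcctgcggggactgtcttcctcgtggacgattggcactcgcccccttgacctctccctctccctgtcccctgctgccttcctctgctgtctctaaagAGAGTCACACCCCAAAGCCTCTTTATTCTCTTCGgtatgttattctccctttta

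The 2 exons matched at 26 of 34 bases (76.5%), and since 34 is 1 base beyond a multiple of 3, skipping either shifts the reading frame. In the GENCODE vM39 annotation the Ptbp2 exon was included in 4 protein-coding transcripts and 5 marked for nonsense-mediated decay, and skipped in 4 marked for decay and 1 retained intron, with 0 protein-coding transcripts that skip it. The Ptbp1 exon was included in 8 protein-coding transcripts, 5 marked for decay and 1 retained intron. It was skipped in 3 protein-coding transcripts, whose annotated reading frames cover 47 to 60 codons, and in 2 marked for decay. Whether these annotated frames are complete was not checked.

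PTBP1 prefers short pyrimidine motifs, so the 100 intronic bases before each exon were searched on the transcribed strand for TCTT and CTCTCT, whose matches can share bases, and for TGC, the motif that SRRM4 prefers. The Ptbp2 window held 6 TCTT, a number reached by 0.232% of the 220176 windows of this length before internal exons of protein-coding transcripts, whose mean was 1.04. It also held 1 CTCTCT, which 10.3% of windows have, and 2 TGC, which 50.6% reach. The Ptbp1 window held 1 TCTT, which 63.0% of windows have, no CTCTCT, and 4 TGC, which 10.9% reach. A match is a description of the letters and not a measured binding site, and counts per gene do not measure whether either exon was used.

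Ptbp1 in IHC libraries ranged from 744 to 1537 CPM with a median of 1097, and in OHC libraries from 450 to 649 CPM with a median of 550. All 6 IHC libraries lay above all 6 OHC libraries. A separation without overlap in that direction was found for 2.37% of the genes tested, in the opposite direction for 2.22% and in either for 4.6%. It depends on the scale. The groups were also apart in CPM of the counts outside ribosomal RNA (1099 to 1947 against 719 to 1019). They overlapped in CPM of all counts (692 to 1352 against 491 to 781), in TPM (280 to 908 against 260 to 499) and in TPM without ribosomal RNA (1018 to 1892 against 665 to 1042), with 4 IHC libraries above every OHC library on each of these 3 scales. The means were 1133 ± 294 CPM in IHCs and 550 ± 85.2 CPM in OHCs (SD, n = 6 each), a log2 fold change of -1.04 (SE 0.19, 95% confidence interval -1.45 to -0.64) with an adjusted p of 0.00242 by edgeR's QL test with Benjamini-Hochberg adjustment. In TMM-normalized CPM the 2 highest IHC values came from replicate 1, which was the lowest IHC library in TPM and had the highest share of ribosomal RNA and the lowest summed supporting-cell markers (322 CPM) of the IHC libraries, and from replicate 5, which had the highest supporting-cell sum (689 CPM). Without both libraries the log2 fold change was -0.82 with an adjusted p of 0.00789 in the same test. Scaled by total counts, it was -0.77 with an adjusted p of 0.0532, in a fit where the median of all genes moved to 0.21, and relative to that median it was -0.97, against -1.01 in the reported fit. Scaled by counts outside ribosomal RNA it was -0.87 with an adjusted p of 0.00314. These 3 checks were chosen after seeing the data. Summed supporting-cell markers were also higher in IHC libraries (322 to 689 against 96.4 to 248 CPM), and their part in the Ptbp1 value was not tested. Ptbp1 shares 280 bp (5.81%) of its exonic bases with Plppr3 on the opposite strand, which had up to 5957 counts, 295 bp (6.13%) with E130317F20Rik, which had up to 398, and 437 bp (9.07%) with Gm17134, at 0 counts in all libraries. Since the strand setting of the counting is not given in the sources used here, reads in these shared stretches may have been lost or moved between genes.

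Ptbp2 ranged from 1.11 to 19.3 CPM in IHCs with a median of 5.74, and from 9.93 to 36.3 CPM in OHCs with a median of 18.1. The groups overlapped, with 4 IHC libraries below every OHC library and 2 OHC libraries above every IHC library. The means were 7.64 ± 6.66 and 21.7 ± 9.55 CPM (SD, n = 6 each). The log2 fold change was 1.50 (SE 0.60, 95% confidence interval 0.24 to 2.76), and with an adjusted p of 0.150 by edgeR's QL test with Benjamini-Hochberg adjustment (0.0220 before adjustment) Ptbp2 was not called. DESeq2 gave 1.52 with an adjusted p of 0.0462, in a fit that called 17.3% of 16911 genes (1339 higher in IHCs and 1590, or 9.4%, higher in OHCs, where edgeR called 506 and 324).

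The levels of Ptbp1 and Ptbp2 within a library were set side by side as a ratio of TPM (counts divided by exon length and scaled to a sum of 1000000), in which the scaling of a library cancels except for the 0.1 TPM added to each level. On this scale Ptbp1 exceeded Ptbp2 in all 12 libraries. The log2 ratio of Ptbp2 to Ptbp1 ranged from -10.61 to -7.25 in IHCs with a median of -8.73, and from -6.80 to -5.02 in OHCs with a median of -6.26. The ratios of the cell types did not overlap, and all were higher in OHCs. This ratio combines both genes and is given without a test. Ptbp1 leaned to IHCs and Ptbp2 to OHCs, so their ratio holds both differences. How often ratios of other gene pairs separate in this way was not tested, so the lack of overlap is a description only. At the medians Ptbp1 was 425-fold above Ptbp2 in IHCs and 76.4-fold above it in OHCs. The value for IHCs depends on what is added, at 465-fold with nothing added and 201-fold with 1 TPM, against 78.0-fold and 64.7-fold in OHCs, and the ratios of the cell types were apart in each case.

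**Figure D1:**
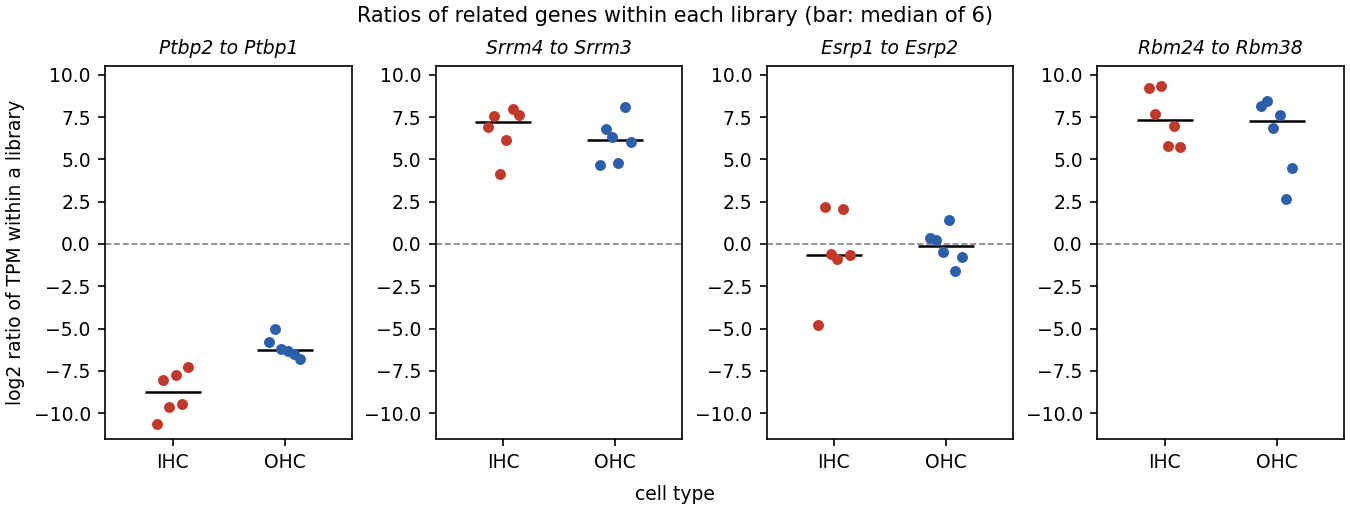
Log2 ratio of TPM of related genes within each library (vertical axis), for Ptbp2 to Ptbp1, Srrm4 to Srrm3, Esrp1 to Esrp2 and Rbm24 to Rbm38, in 6 IHC libraries (red points) and 6 OHC libraries (blue points), with 0.1 TPM added to each level, bars at the medians and a dashed line where both genes are equal. Among the pairs shown, the 2 cell types are apart only for Ptbp2 to Ptbp1, where IHC libraries reach up to -7.25 and OHC libraries start at -6.80. How often other gene pairs separate was not tested.

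Srrm4, the main activator of microexons, lies on chromosome 5 (116577334 to 116729924, minus strand, ENSMUSG00000063919.12). It ranged from 301 to 663 CPM in IHCs with a median of 535, and from 351 to 577 CPM in OHCs with a median of 393. The groups overlapped, although 3 IHC libraries lay above all OHC libraries and 1 below all of them. Means were 513 ± 147 and 419 ± 81.8 CPM (SD, n = 6 each), with a log2 fold change of -0.29 (SE 0.21, 95% confidence interval -0.73 to 0.15) and an adjusted p of 0.451 by edgeR's QL test with Benjamini-Hochberg adjustment. The interval thus leaves room for a level in OHCs between 0.602 and 1.11 times that in IHCs.

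Srrm3, the relative of Srrm4 that acts on many of the same short exons, lies on the same chromosome (135835744 to 135903626, plus strand, ENSMUSG00000039860.20). It ranged from 0.879 to 27.5 CPM in IHCs with a median of 2.59, and from 0.767 to 12.3 CPM in OHCs with a median of 3.70. A single library, IHC replicate 3, gave the highest value, and the next IHC library had 3.93 CPM. The log2 fold change was -0.18 (SE 0.90, 95% confidence interval -2.05 to 1.69), with an adjusted p of 0.931 by edgeR's QL test with Benjamini-Hochberg adjustment, and it was 1.34 without IHC replicate 3 (adjusted p 0.404 in the same test), so no direction is given for Srrm3. With 0.1 TPM added to each level, Srrm4 was above Srrm3 in TPM in 12 of 12 libraries, at a median of 151-fold in IHCs and 71.7-fold in OHCs (52.7-fold and 48.1-fold with 1 TPM added), with overlapping log2 ratios of 4.13 to 7.99 and 4.67 to 8.07.

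Rest encodes the zinc finger repressor that binds neuronal genes and silences them in other cells. It lies on chromosome 5 (77408131 to 77434284, plus strand, ENSMUSG00000029249.16). Its small exon, which SRRM4 is known to promote and which yields a shortened protein with little repressor activity, is shown because it is the link between 2 members, Srrm4 and Rest. The sequence is chr5:77427646-77427781 of GRCm39 on the plus strand, with the exon of 16 bp in capitals between 100 and 20 intronic bases.
Rest: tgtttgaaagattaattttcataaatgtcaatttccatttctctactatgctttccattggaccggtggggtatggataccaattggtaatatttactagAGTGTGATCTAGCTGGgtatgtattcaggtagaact

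Only 1.24% of the 220176 internal exons in the annotation are 27 bp or shorter. The length of the Rest exon is again 1 base beyond a multiple of 3. In GENCODE vM39 it belonged to 1 transcript, Rest-204, with a reading frame of 328 codons, and was skipped in 13, among them Rest-201 with 1082 codons. Some transcripts that skip it also had short annotated reading frames, such as Rest-207 with 324 and Rest-212 with 341 codons. Whether any of these annotated frames is complete was not checked. The 100 bases before the exon held 1 TGC, which 80.6% of windows have, and 0 TCTT.

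Rest ranged from 14.8 to 132 CPM in IHCs with a median of 46.2, and from 24.4 to 67.7 CPM in OHCs with a median of 32.6. The groups overlapped, with IHC replicate 1 far above the other IHC libraries, of which the next had 55.3 CPM, and 1 IHC library below all OHC libraries. In TPM, IHC replicate 1 was at 11.9, within the IHC range of 3.89 to 17.8. CPM means were 55.5 ± 39.7 and 38.0 ± 17.2 CPM (SD, n = 6 each), with a log2 fold change of -0.54 (SE 0.42, 95% confidence interval -1.42 to 0.33) and an adjusted p of 0.480 by edgeR's QL test with Benjamini-Hochberg adjustment. Without IHC replicate 1 the log2 fold change was -0.09. These counts add up all transcripts of Rest, with and without the small exon.

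Nova2 encodes a neuronal splicing factor and lies on chromosome 7 (18659789 to 18699244, plus strand, ENSMUSG00000030411.17). It ranged from 18.1 to 76.9 CPM in IHCs with a median of 40.9, and from 11.6 to 89.9 CPM in OHCs with a median of 24.5. The OHC libraries spanned the whole IHC range, with OHC replicate 5 highest of all and the next OHC library at 30.2 CPM. The log2 fold change was -0.37 (SE 0.46, 95% confidence interval -1.33 to 0.59) with an adjusted p of 0.684, and without OHC replicate 5 it was -0.98 with an adjusted p of 0.174, both by edgeR's QL test with Benjamini-Hochberg adjustment.

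Esrp1 and Esrp2, which encode the splicing factors of epithelial cells, lie on chromosome 4 (11331933 to 11386875, minus strand, ENSMUSG00000040728.16) and chromosome 8 (106853859 to 106864027, minus strand, ENSMUSG00000084128.11). Esrp1 ranged from 0.916 to 14.3 CPM in IHCs with a median of 7.54, and from 1.17 to 22.4 CPM in OHCs with a median of 8.12. Esrp2 ranged from 1.93 to 50.03 CPM in IHCs with a median of 10.7, and from 3.20 to 19.3 CPM in OHCs with a median of 8.33. Both genes overlapped widely between the cell types, and the highest Esrp2 value, in IHC replicate 1, stood apart from the next IHC library at 15.04 CPM, while in TPM these were 5.58 and 5.42.

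The log2 fold change was 0.26 for Esrp1 (SE 0.71, 95% confidence interval -1.21 to 1.74) with an adjusted p of 0.865 and -0.64 for Esrp2 (SE 0.72, 95% confidence interval -2.14 to 0.87) with an adjusted p of 0.650, by edgeR's QL test with Benjamini-Hochberg adjustment. Neither sign was stable, at -0.20 for Esrp1 without OHC replicate 2 and 0.24 for Esrp2 without IHC replicate 1. The Esrp2 counts are uncertain, since 2626 bp (33.4%) of its exonic bases lie within exons of Nfatc3 on the opposite strand, which had up to 7898 counts, and 14.4% within those of 1810019D21Rik, and the strand setting of the counting is not given in the sources used here. In TPM, Esrp1 exceeded Esrp2 in 2 of 6 IHC libraries and 3 of 6 OHC libraries.

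Rbm24, an RNA-binding protein of muscle that hair cells also use for the splicing of stereocilia genes, lies on chromosome 13 (46571589 to 46584575, plus strand, ENSMUSG00000038132.7). It ranged from 405 to 555 CPM in IHCs with a median of 426, and from 361 to 534 CPM in OHCs with a median of 411. The groups overlapped almost entirely. In TMM-normalized CPM, Rbm24 varied least of the 10 within each cell type, a ranking that did not hold for OHCs in TPM. Its means were 459 ± 64.9 and 425 ± 58.4 CPM (SD, n = 6 each), with coefficients of variation of 14.1% and 13.7%. The log2 fold change was -0.11 (SE 0.17) with an adjusted p of 0.754 by edgeR's QL test with Benjamini-Hochberg adjustment, and its 95% confidence interval of -0.46 to 0.25 was the narrowest of the 10. The sign turned with the scaling, at 0.16 by total counts and 0.054 by counts outside ribosomal RNA.

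Rbm38, its close relative, lies on chromosome 2 (172862291 to 172876527, plus strand, ENSMUSG00000027510.18). It ranged from 0.131 to 3.98 CPM in IHCs with a median of 1.30, and from 0.549 to 33.5 CPM in OHCs with a median of 1.32. The medians were nearly equal, and 2 OHC libraries, replicate 5 at 33.5 and the next at 9.04 CPM, lay above all others. The log2 fold change of 2.10 (SE 1.10, 95% confidence interval -0.19 to 4.38) had an adjusted p of 0.272, and it was 0.53 with an adjusted p of 0.820 without OHC replicate 5, both by edgeR's QL test with Benjamini-Hochberg adjustment. In TPM, Rbm24 was above Rbm38 in every library, at a median of 159-fold in IHCs and 153-fold in OHCs (79.9-fold and 94.2-fold with 1 TPM added).

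**Figure D2:**
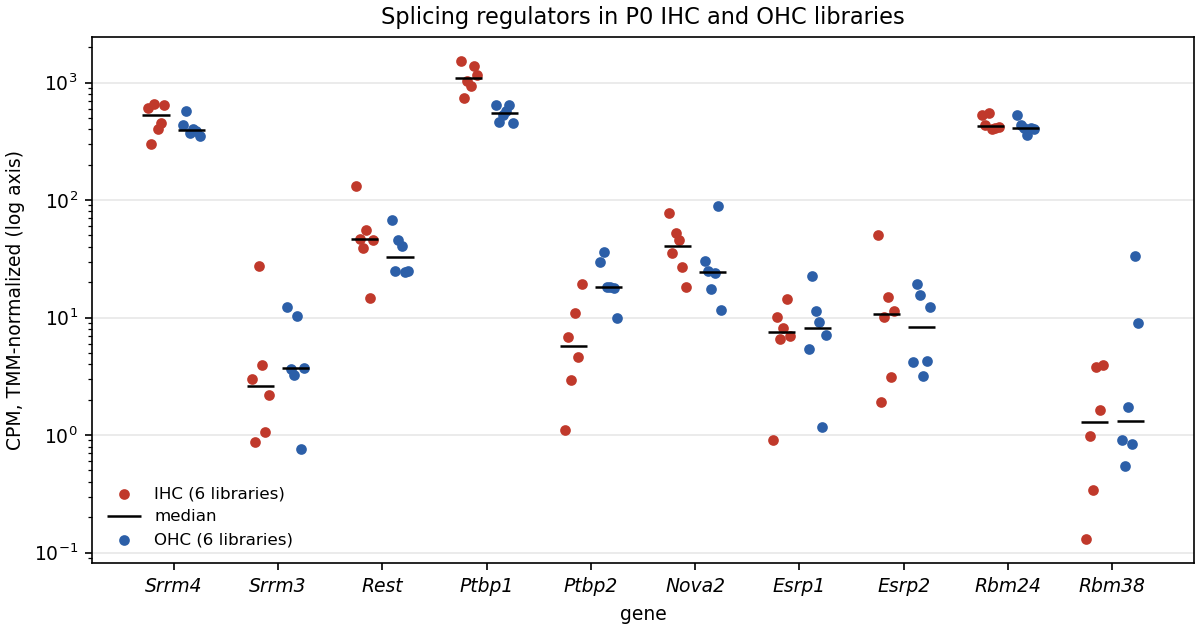
TMM-normalized CPM (vertical log axis) of the 10 splicing regulators in each of 6 IHC libraries (red points) and 6 OHC libraries (blue points), with bars at the medians. On this scale Ptbp1 is the gene whose libraries do not overlap between the cell types (744 to 1537 against 450 to 649 CPM), Rbm24 forms the tightest groups, and Srrm3, Esrp1, Esrp2 and Rbm38 scatter widely within a cell type.

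**Figure D3:**
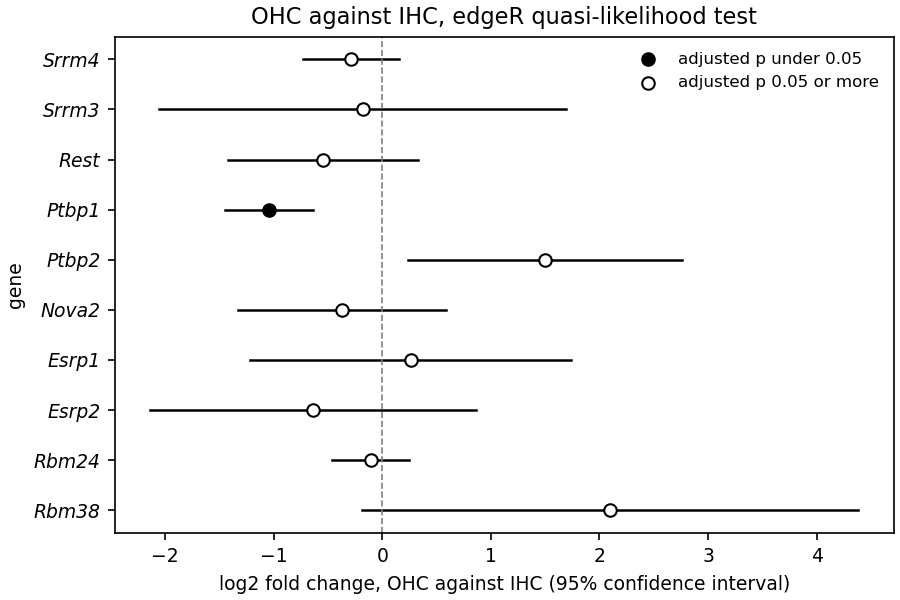
Log2 fold change of OHCs against IHCs (horizontal axis) for each of the 10 splicing regulators, with its 95% confidence interval, where a filled point marks an adjusted p under 0.05. Ptbp1 at -1.04 is filled, Ptbp2 at 1.50 has an interval above 0 but is not, and the intervals of the other 8 genes include 0.

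Per exon length, the order of the 10 regulators had the same 5 genes at the top in both cell types. In IHCs the mean level was 566 ± 239 TPM for Ptbp1, 203 ± 76.9 TPM for Rbm24 and 148 ± 83.4 TPM for Srrm4 (SD, n = 6). In OHCs it was 350 ± 86.4, 238 ± 69.5 and 148 ± 40.6 TPM (SD, n = 6). These 3 genes stood above 97.6% to 99.5% of the genes tested, and the order Ptbp1, Rbm24, Srrm4 and then Rest held within 6 of 6 libraries of each cell type.

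Rest and Nova2 followed at 11.8 and 11.1 TPM in IHCs and at 12.7 and 11.0 TPM in OHCs. The lower part of the order in IHCs was Esrp2 at 3.57, Srrm3 at 2.74, Esrp1 at 2.69, Rbm38 at 1.89 and Ptbp2 at 1.86 TPM, and in OHCs it was Rbm38 at 6.54, Ptbp2 at 5.49, Esrp2 at 3.87, Esrp1 at 3.80 and Srrm3 at 2.94 TPM. Neighbours in the order did not differ beyond their SDs except Ptbp1 and Rbm24, Srrm4 and Rest, and Nova2 and Esrp2 in IHCs, and Srrm4 and Rest in OHCs. Rest was above Nova2 in 4 of 6 libraries of each cell type. The order of Rest and Nova2, and that of the genes below them, is therefore not resolved by these libraries. The Rbm38 mean in OHCs includes replicate 5 at 25.7 TPM, beside a median of 1.64 TPM.

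The genes whose log2 CPM followed a member most closely over the 12 libraries are given as a description. They were Smtn (Pearson r = 0.89), Xylt1 (0.86) and Dcp1a (0.86) for Srrm4, and Zcchc8 (0.90), Emc8 (0.90) and Trpc1 (0.88) for Rbm24. For Srrm3 they were Ripk4 (0.86), Plce1 (0.84) and Kctd2 (0.83), and for Esrp1 Fbxo9 (0.90), Inpp4a (0.89) and Nat10 (0.89). The 12 points share depth and amplification within each library and fall into 2 cell types.

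The lists of genes that act with or beside the members were described in the same fit. Of 8 splicing factors listed as candidate partners of SRRM4 at short exons, all 8 were tested and 0 were called by edgeR's QL test (1, higher in IHCs, by DESeq2 and by edgeR's exact test, and 2 at an unadjusted p under 0.05), with a median log2 fold change of -0.44 beside -0.04 over all genes. Srsf11, an SR-like protein that works with SRRM4, had 67.1 ± 23.7 CPM in IHCs and 47.6 ± 15.6 in OHCs (log2 fold change -0.49). Rnps1, a component of the exon junction complex, had 39.9 ± 15.98 and 61.0 ± 35.0 CPM (log2 fold change 0.61; SD, n = 6 in each case), and neither passed, at adjusted p of 0.370 and 0.343.

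All 20 corepressors of REST were tested, and 1 was higher in IHCs and 0 in OHCs, at a median of -0.31. The gene called was Ctbp2, which encodes a corepressor and, from another promoter, the ribbon protein RIBEYE, so its counts on the gene hold both. Ctbp2 ranged from 92.5 to 289 CPM in IHCs with a median of 119, and from 39.2 to 100.1 CPM in OHCs with a median of 64.5, with 5 IHC libraries above all OHC libraries (log2 fold change -1.27, SE 0.30, adjusted p 0.0151 by edgeR's QL test with Benjamini-Hochberg adjustment). The scaffold Rcor1 had 61.6 ± 25.2 and 58.5 ± 13.1 CPM, and the demethylase Kdm1a had 99.5 ± 35.1 and 118 ± 25.7 CPM (SD, n = 6), and neither was called, at adjusted p of 0.911 and 0.614.

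Of 18 neuronal genes known as REST targets, 11 were tested, and 3 were higher in IHCs and 0 in OHCs, at a median of -0.32. Snap25, a membrane fusion protein of synaptic vesicles, ranged from 117 to 225 CPM in IHCs with a median of 148, and from 59.5 to 91.4 CPM in OHCs with a median of 70.2, with no overlap (log2 fold change -1.17, SE 0.23, adjusted p 0.0031). Chga, a protein of secretory granules, ranged from 91.5 to 174 CPM in IHCs with a median of 109, and from 43.3 to 86.1 CPM in OHCs with a median of 56.1, also with no overlap (log2 fold change -1.01, SE 0.24, adjusted p 0.0155). Mapk8ip1, a scaffold of JNK signalling, overlapped, with 5 IHC libraries above all OHC libraries (log2 fold change -1.72, SE 0.43, adjusted p 0.0201), and these p are from edgeR's QL test with Benjamini-Hochberg adjustment. Mapk8ip1 was no longer called without OHC replicate 2 (0.0531), without OHC replicate 6 (0.0512) or without IHC replicates 1 and 5 together (0.0588, adjusted p in each case). The summed markers of spiral ganglion neurons were also higher in IHC libraries, and their part in these values was not tested.

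Of 18 epithelial genes, 13 were tested, with 0 higher in IHCs and 1 higher in OHCs, at a median of -0.37. The gene called was Cdh1, the cadherin of epithelial junctions, at 10.1 to 40.3 CPM in IHCs with a median of 29.1 and at 746 to 1043 CPM in OHCs with a median of 831. The groups lay far apart, at 27.8 ± 12.2 and 879 ± 116 CPM (SD, n = 6), with a log2 fold change of 4.98 (SE 0.31, adjusted p 1.04e-08 by edgeR's QL test with Benjamini-Hochberg adjustment), while Esrp1 and Esrp2 were low in both cell types. Of 7 mesenchymal genes, 6 of them transcription factors, 3 were tested, and Vim, an intermediate filament, was higher in IHCs at 70.9 ± 13.6 against 19.8 ± 19.1 CPM (SD, n = 6, log2 fold change -1.84, adjusted p 0.0185 in the same test). Summed supporting-cell markers (322 to 689 against 96.4 to 248 CPM) and mesenchyme markers (8.85 to 35.4 against 2.13 to 14.3 CPM, 0 of the 4 tested called) were also higher in IHC libraries, and their part in the Vim value was not tested. Zeb1, a repressor of Cdh1, had 4.53 ± 3.31 and 7.80 ± 8.33 CPM (SD, n = 6) and an adjusted p of 0.652 in the same test.

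Of 35 other tissue-enriched splicing regulators, 29 were tested, with 0 higher in IHCs and 3 higher in OHCs, at a median of -0.03. Khdrbs2, which encodes the neuronal splicing factor SLM1, ranged from 1.65 to 14.2 CPM in IHCs with a median of 6.60, and from 17.9 to 38.5 CPM in OHCs with a median of 30.4. The groups did not overlap (log2 fold change 2.03, SE 0.50, adjusted p 0.0185 by edgeR's QL test with Benjamini-Hochberg adjustment). Elavl2, a neuronal RNA-binding protein, was at 0.0306 to 0.916 CPM in IHCs and 0.597 to 23.2 CPM in OHCs (log2 fold change 4.88, SE 1.13, adjusted p 0.0125 in the same test). Rbpms, a splicing factor of smooth and heart muscle, was at 0 to 0.654 CPM in IHCs and 0.474 to 22.0 CPM in OHCs (log2 fold change 5.26, SE 1.31, adjusted p 0.0201 in the same test), and it was not called without OHC replicate 5 (adjusted p 0.0609). Each of these 2 low genes had 1 OHC library within the range of the IHCs. The summed endothelial markers were also higher in OHC libraries, and their part in these 3 values was not tested.

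At an unadjusted p under 0.05, 12.4% of all genes tested were higher in IHCs and 9.36% in OHCs. In the direction of IHCs this held for 2 microexon partners, 4 REST corepressors, 5 REST targets, 3 epithelial genes, 2 mesenchymal genes and 2 of the other splicing regulators. In the direction of OHCs it held for 1 epithelial gene, 4 of the other splicing regulators and no gene of the remaining lists. Where edgeR's QL test called 0 list genes after adjustment, DESeq2 called 1 microexon partner, 2 epithelial genes and 2 other splicing regulators higher in IHCs. It called 1 mesenchymal gene higher in OHCs. Scaled by total counts that include ribosomal RNA, Ctbp2, Snap25, Chga, Mapk8ip1 and Vim were not called (adjusted p 0.0636 to 0.164), and all 5 were called when scaled by counts outside ribosomal RNA.

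The closest relatives of the members in that list were not called. Ptbp3, the third polypyrimidine tract binding protein, was at 208 ± 65.0 CPM in IHCs against 187 ± 24.2 CPM in OHCs (SD, n = 6), with a log2 fold change of -0.15 (SE 0.22) and an adjusted p of 0.742 by edgeR's QL test with Benjamini-Hochberg adjustment. Nova1, the relative of Nova2, had 4.35 ± 3.45 and 2.27 ± 1.86 CPM (SD, n = 6) and an adjusted p of 0.561 in the same test.

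**Figure D4:**
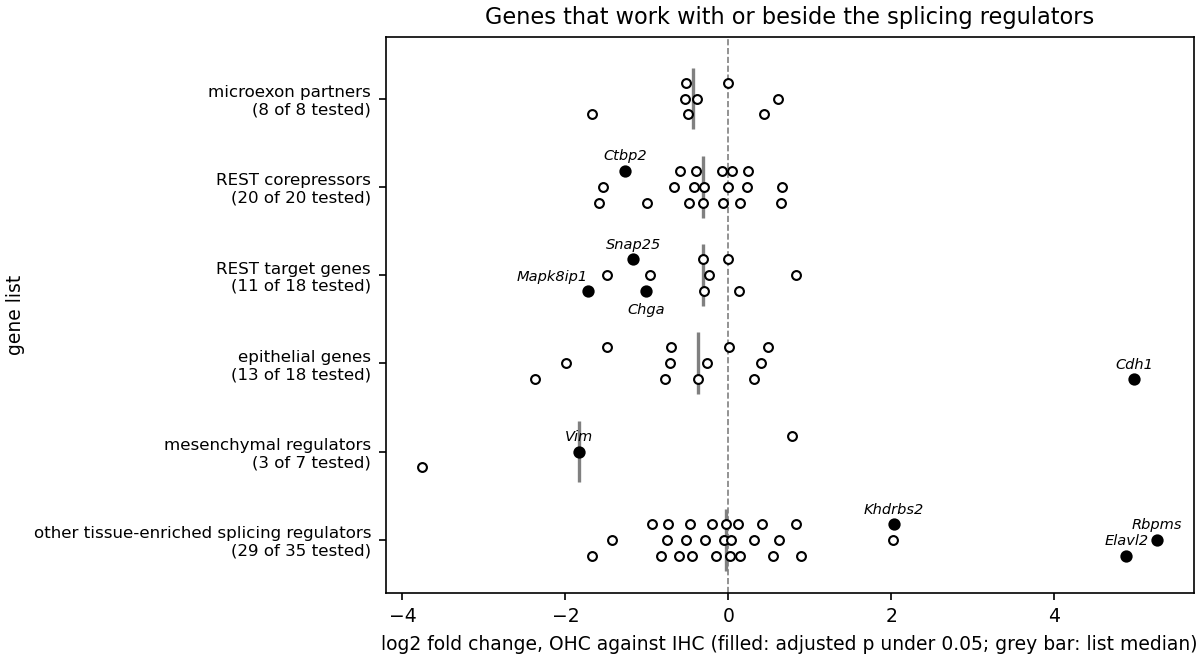
Log2 fold change of OHCs against IHCs (horizontal axis) for each tested gene of 6 lists (rows), with filled, named points at an adjusted p under 0.05, open points otherwise and grey bars at the list medians, where points of a list are spread vertically only to keep them apart. Called genes are Ctbp2, Snap25, Chga, Mapk8ip1 and Vim on the side of IHCs and Cdh1, Khdrbs2, Elavl2 and Rbpms on the side of OHCs, and the list medians run from -1.84 for the 3 tested mesenchymal regulators to -0.03.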

How the data were processed

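Libraries were assigned to IHCs or OHCs, and numbered, from the sample labels. The values deposited by the authors are unnormalized read counts for each of 55416 genes and 5 summary lines of HTSeq. Per the labels and methods, reads were trimmed with Trimmomatic, aligned to GRCm39 with STAR in 2 passes and counted with HTSeq (intersection-nonempty) on the GENCODE vM27 annotation, with versions and strand setting not given in the sources used here. Libraries were depleted of ribosomal RNA, primed with random hexamers, amplified and sequenced as paired reads without molecular identifiers, so counts include amplification copies, and precision is read from the spread between libraries.

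The summary lines (24.2% to 43.4% of all lines' counts in IHCs, 28.9% to 46.1% in OHCs) were left out. Genes were filtered with filterByExpr (minimum count 10, minimum total 15), normalized by TMM and tested with the quasi-likelihood test of edgeR 4.0.16 (glmQLFit, glmQLFTest) in R 4.3.3, with Benjamini-Hochberg adjustment over all genes tested and a threshold of 0.05. The code was tested on simulated data. CPM are on TMM-normalized library sizes. TPM, exon overlaps and coordinates used GENCODE vM39 on GRCm39, where 98.8% of the genes were found, and sequences were read from that genome. Ratios added 0.1 TPM to each level. Correlations used log2 CPM with a prior count of 2, over tested genes with a mean of at least 10 CPM.

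The members and lists were chosen with earlier results of these data known. Named from the lists were at most 5 genes past the threshold per list with the largest log2 fold change, plus Ptbp3, Nova1, Rcor1, Kdm1a, Srsf11, Rnps1, Zeb1 and Cdh1. Alternatives were DESeq2 1.42.0, edgeR's exact test, RLE size factors, no filter, at least 10 counts in every library, no ribosomal RNA, a replicate block and leaving out each library. Scaling by total counts, with and without ribosomal RNA, ratios with no pseudocount, and leaving out 2 IHC libraries together were added after seeing the data.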

Additional observations from a re-analysis of the deposited data

Results flagged for a closer look

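Within 6 of the 20 groups of 6 libraries (10 genes in 2 cell types), the highest library stood apart from the others in TMM-normalized CPM. This was judged by its gap to the next library as a share of the range of the group. How many groups would be flagged by chance was not tested. The CPM varied unevenly, with a coefficient of variation of up to 168% (Rbm38 in OHCs), so the number is a description only. Srrm3 was at 27.5 CPM in IHC replicate 3 and at most 3.93 CPM in the other IHC libraries. Srrm4 was at 577 CPM in OHC replicate 2, with the next OHC library at 432 CPM. In IHC replicate 1, the library with the highest share of ribosomal RNA, Rest was at 132 CPM (next 55.3) and Esrp2 at 50.03 CPM (next 15.04). In OHC replicate 5, the OHC library with the highest share of ribosomal RNA (36.4%), Rbm38 was at 33.5 CPM (next 9.04) and Nova2 at 89.9 CPM (next 30.2). The flags depend on the scale. On 5 scales (CPM with TMM, of all counts or of counts outside ribosomal RNA, and TPM with or without ribosomal RNA), Srrm3 in IHC replicate 3 and Rbm38 in OHC replicate 5 stood apart on all 5 and Nova2 in OHC replicate 5 on 4, all but TPM. Srrm4, Rest and Esrp2 did so only in TMM-normalized CPM. In CPM of counts outside ribosomal RNA, Rbm24 in IHC replicate 3 stood apart too, at 778 (next 640).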

How the results depend on the processing

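Ptbp1 stayed higher in IHCs under all 22 alternatives, at log2 fold changes of -1.14 to -0.77, and past the threshold in 21, the exception being total counts in place of TMM (-0.77, adjusted p 0.0532, with 0 members called). When single libraries were left out it was -1.14 to -0.95. Ptbp2 stayed higher in OHCs in all 22 (1.10 to 2.03, adjusted p 0.0462 to 0.301) and passed the threshold only with DESeq2, at 1.52. Srrm4, Rest and Nova2 kept their sign in all 22 and Rbm38 in the 21 in which it was fitted, and none of these 4 was called in any. The sign turned for Srrm3 with the replicate block (0.63), without IHC replicate 3 (1.34), with total counts (0.039) and without OHC replicate 5 (0.05), for Rbm24 with total counts (0.16) and with counts outside ribosomal RNA (0.054), for Esrp1 without OHC replicate 2 (-0.20), and for Esrp2 without IHC replicate 1 (0.24) and without IHC replicates 1 and 5 together (0.027). Leaving out single libraries gave -0.59 to 1.34 for Srrm3, -0.20 to 0.52 for Esrp1 and -0.97 to 0.24 for Esrp2. The cause was not tested.

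Over all genes, 1339 were higher in IHCs and 1590 in OHCs with DESeq2, which called 1 member (Ptbp2) higher in OHCs, 893 and 918 without the low-count filter, 751 and 519 with the exact test, 229 and 341 scaled by total counts, and 376 and 419 scaled by counts outside ribosomal RNA. The IHC share of calls was 61.0% in the reported fit, 45.7% with DESeq2, 49.3% without the filter, 40.2% and 47.3% with those scalings, and 48.0% without IHC replicates 1 and 5 together. Leaving out single libraries gave 369 to 551 and 225 to 402. Median log2 fold changes were 0.12 with DESeq2, 0.11 without the filter, both over 27488 genes fitted, -0.05 with RLE size factors, 0.21 with total counts and 0.11 with counts outside ribosomal RNA.

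For the lists, the number higher in IHCs was, with DESeq2, 1 microexon partner, 3 REST corepressors, 5 REST target genes, 2 epithelial genes, 2 mesenchymal regulators and 2 other splicing regulators. In OHCs it was 2 epithelial genes, 1 mesenchymal regulator and 4 other splicing regulators. The exact test gave 1 microexon partner, 2 REST corepressors, 3 REST target genes and 2 mesenchymal regulators higher in IHCs. It gave 1 epithelial gene and 3 other splicing regulators higher in OHCs. For the alternatives that follow, only counts that differ from the reported fit are given. Without the filter 1 microexon partner and 4 REST target genes were higher in IHCs and 1 mesenchymal regulator in OHCs. With total counts, 0 REST corepressors, 0 REST target genes and 0 mesenchymal regulators were higher in IHCs. Without ribosomal RNA 2 REST corepressors were higher in IHCs, and with at least 10 counts in every library 1 other splicing regulator was higher in OHCs, since Elavl2 and Rbpms did not enter that fit. Without IHC replicates 1 and 5 together, 2 REST target genes and 2 mesenchymal regulators were higher in IHCs and 2 epithelial genes in OHCs. Leaving out single libraries gave, higher in IHCs, 0 to 1 microexon partners, 1 to 2 REST corepressors, 2 to 3 REST target genes, 1 to 2 mesenchymal regulators and 0 to 1 other splicing regulators, and, higher in OHCs, 1 to 2 epithelial genes and 2 to 3 other splicing regulators.

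By CPM in place of TPM, 6 genes changed rank in IHCs and 4 in OHCs, and by the median in place of the mean 4 and 5. With 1 TPM added, the median log2 ratio in IHCs was 5.72 for Srrm4 to Srrm3, -7.65 for Ptbp2 to Ptbp1 and 6.32 for Rbm24 to Rbm38 (6.56 in OHCs), and with nothing added it was 7.49, -8.86 and 7.45. Same-numbered IHC and OHC libraries did not deviate together (r -0.03 to 0.02, no library correlating best with its own number). This cannot tell whether same-numbered pools came from the same pups, since the spread between libraries could hide a shared source. With the replicate block 512 genes were higher in IHCs and 391 in OHCs, and Ptbp1 was the only member called. Depth was not the limit for Srrm4, Ptbp1 and Rbm24, whose intervals were set by the spread between libraries, while Rbm38 fell to 2 counts in 1 library and Esrp1 to 14.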
